A study of Mus musculus with 18 samples.

Results

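The early response to dexamethasone (Dex, a synthetic glucocorticoid) was followed in C2C12 myotubes 6 h after its addition. The comparison sets the 4 arrays titled as Dex at 6 h against the 4 titled as ethanol at 6 h, 8 of the 18 arrays of the series, and it is described over all 19053 genes that a probe could name. C2C12 is an established mouse myoblast line, and myotubes are the fused, muscle fibre-like cells it forms. The Dex cultures received 1 uM Dex and the control cultures ethanol, the solvent, at 0.01% of the medium volume. Every group was kept in DMEM with 2% horse serum. The other 10 arrays, 5 per group, hold the same treatments after 24 h and show what became of the genes that changed at 6 h. They also enter the estimate of spread behind the 6 h p-values and the choice of the probe for each gene. RNA was labelled with biotin from a template of 750 ng of total RNA and read on Illumina mouse bead arrays. The series text speaks of triplicate treatments while the titles number 4 arrays per group, and no label says that the arrays came from separate cultures, so a p-value here reflects only how these arrays vary, which may be technical.

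Dex binds the glucocorticoid receptor, a nuclear receptor that rests in the cytoplasm with chaperones and moves to the nucleus once a hormone is bound. There it can bind DNA directly at response elements, in which a pair of AGAACA-like motifs face each other across a short gap, or act through other DNA-bound factors, and genes near such sites rise or fall. In skeletal muscle glucocorticoids are known for protein breakdown, reduced insulin action and the damping of inflammatory signals.

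The labelled cell type was checked against its markers. All 10 measured myotube markers lay above the range of dim probes described below, with ethanol means from 3673 to 37540, and none of them was called. Of the 6 fibroblast markers, 5 lay above that range and 1 rose, the platelet-derived growth factor receptor gene Pdgfra. It read 459.6, 438, 492 and 509 with ethanol and 617, 706, 759 and 772 with Dex, with a log2 fold change of 0.59 ± 0.10 (SE, adjusted p = 0.00085, limma). The mean of the Pdgfra probes was not called (0.26), and the summed fibroblast level ran from 22598 to 27603 with ethanol and from 22532 to 25188 with Dex. None of the 5 markers of cycling myoblasts, 7 of adipocytes, 5 of osteoblasts, 6 of endothelial cells, 6 of macrophages, 6 of epithelia, 6 of neurons or 6 of hepatocytes was called. Their summed level on the ethanol and Dex arrays ran from 850 to 947 and from 834 to 914 for adipocytes, and from 571 to 597 and from 552 to 594 for endothelial cells. For macrophages it ran from 715 to 771 with ethanol and from 728 to 753 with Dex. For cycling myoblasts it ran from 1099 to 1253 with ethanol and from 1033 to 1195 with Dex. By the mean of either 6 h group, 4 of the 5 myoblast markers, 3 of the 5 osteoblast and 3 of the 6 epithelial markers lay above the range of dim probes. In each of the adipocyte, endothelial, macrophage and hepatocyte lists 1 marker lay above that range. The myoblast marker Myf5 (87.3 with ethanol, 109.9 with Dex), the osteoblast marker Ibsp (101.275 and 103.75) and the hepatocyte marker Serpina1a (93.8 and 103.85) did so by the Dex mean only. The summed neuronal level lay lower with ethanol, from 545 to 577, than with Dex, from 582 to 597, with 2 of its 6 markers above the range of dim probes. Its part in the results was not tested.

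After 6 h, 850 of the 19053 genes (4.46%) were called, meaning a limma adjusted p under 0.05. Of these, 472 (2.48%) were higher with Dex and 378 (1.98%) were lower, and 250 (1.31%) changed at least 1.5-fold. More of the larger changes were rises. At a 2-fold change or more there were 67 rises and 15 falls, at 4-fold 8 rises and 1 fall, and at 8-fold 5 rises and no fall. The median change was 0.47 on the log2 scale among genes that rose and 0.42 in size among those that fell. Summed over the called genes, mean intensity rose by 291368 units across the rises and fell by 166756 across the falls. The groups did not overlap for 2077 genes (10.9%). In bulk RNA, fewer cells that express a gene and less RNA of it per cell cannot be told apart.

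The number of calls depended on how the spread was treated. The deposited values hold almost no within-group spread in some directions, which the fit used here takes up as covariates, and without them 1727 genes were called, 890 higher and 837 lower. Without Dex replicate 3 the count was 557, and that of lower genes 223. Without Dex replicate 2 or ethanol replicate 3 the lower genes numbered 230 and 242. The genes changed at least 1.5-fold were steadier, numbering from 237 to 282 as each array was left out, and 243 of the 250 stayed called whichever array was left out, against 434 of all 850. Direct averaging over the probes of a gene gave 154 genes with such a change.

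**Figure D1:**
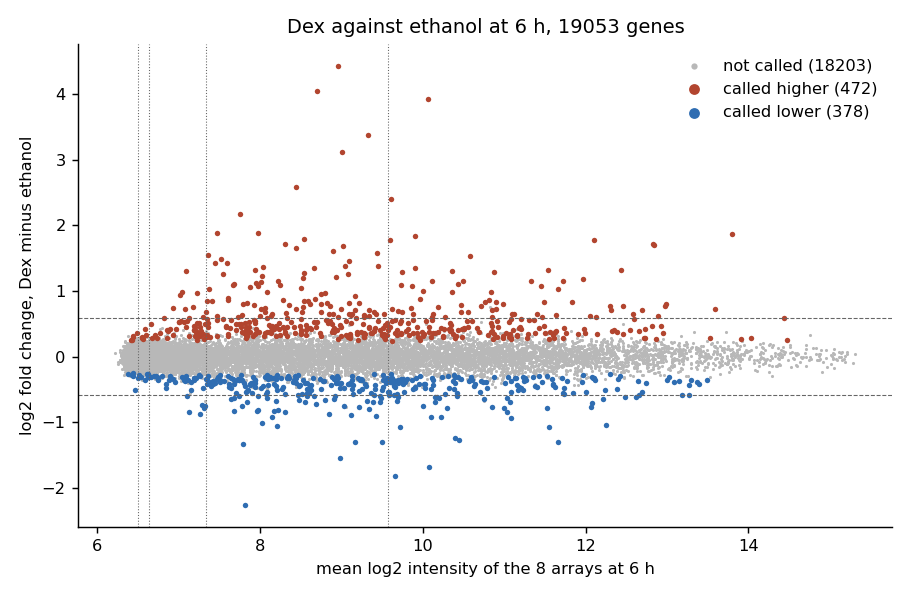
Each point is a gene, placed by its mean log2 intensity over the 8 arrays at 6 h and its log2 fold change, Dex minus ethanol; dotted vertical lines part 5 intensity bins of equal gene number and dashed lines mark a 1.5-fold change. The 472 genes called higher reach 4.43 and the 378 called lower reach -2.26, and few called points lie in the 2 dimmest bins.

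Most called genes were bright ones. Genes were ranked by their mean over the 6 h groups and divided into 5 bins of equal number. A gene that rose can thus enter a brighter bin through its Dex readings, and one that fell through its ethanol readings. The dimmest bin held 11 called genes of 3811 (0.289%) and the next 13 of 3810 (0.341%), with no change of 1.5-fold in either. The third held 80 of 3811 (2.10%). The fourth, from 162 to 759.6 intensity units, held 406 of 3810 (10.7%), and the brightest held 340 of 3811 (8.92%). The fourth bin had 134 genes changed at least 1.5-fold and the brightest 101, against 15 in the third. Ranked instead by the 24 h ethanol arrays, the bins held 19, 28, 116, 380 and 307 called genes. Those arrays are not in the 6 h difference itself, but they share its estimate of spread and the choice of probe. Ranked by the 6 h ethanol arrays alone, the bins held 12, 14, 96, 395 and 333 called genes. Such a rank orders probes, whose brightness differs between probes as well as between transcripts.

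As a yardstick for dim probes, 1301 genes for olfactory, vomeronasal and taste receptors were taken, most of them sensory receptors not known in muscle. Their median intensity with ethanol was 89.6 and their 95th percentile 103. Of these genes 7 were called (0.538%), 4 higher and 3 lower, each by less than 1.5-fold. In all, 11274 genes read above that percentile in at least 1 of the 6 h groups, and 837 of them were called (7.42%), against 13 among the rest. Of the genes that rose, 19 read at or below it on all 4 ethanol arrays, and of those that fell, 21 read at or below it on all 4 Dex arrays. The fold change of such genes is bounded by the background in the dim group.

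Orm1, which encodes the plasma protein orosomucoid, was the one gene that went from at or below the array median on all ethanol arrays to above 2 medians on all Dex arrays. It read 97.2, 88.8, 94.3 and 89.7 with ethanol and 344, 386, 318 and 322 with Dex, with a log2 fold change of 1.89 ± 0.10 (SE, adjusted p = 2.03e-11, limma). All ethanol readings lay inside the range of the sensory receptor genes and all Dex readings at least 3 times the 103 units that bound it. No gene met the mirror rule of falling from above 2 array medians to below 1. The periplakin gene Ppl, a linker of the cell cortex, rose from readings in or just above that range. It read 93.3, 105, 88.1 and 96.8 with ethanol and 273, 281, 296 and 273 with Dex, with a log2 fold change of 1.55 ± 0.082 (SE, adjusted p = 1.02e-11, limma) and 0.94 with the mean of its 3 probes. Sult1a1, a sulfotransferase, and Cyb561, a membrane cytochrome, left it too, with log2 fold changes of 1.31 and 0.98.

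**Figure D2:**
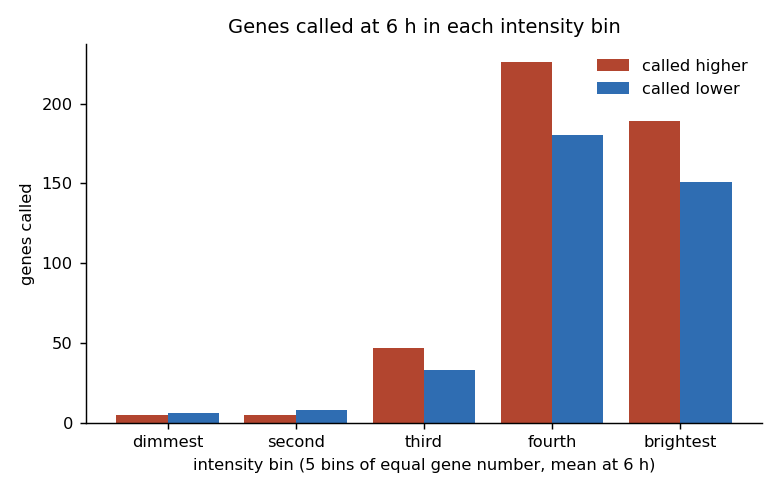
Bars give the number of genes called higher or lower with Dex at 6 h in each of 5 bins of the 19053 genes by mean intensity. The fourth bin holds 226 rises and 180 falls and the brightest 189 and 151, while the 2 dimmest bins hold 5 rises each and 6 and 8 falls.

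Among bright genes, Ccn2, a matricellular growth regulator, gained the most intensity of any called gene. It read 6983, 7666, 6809.9 and 8451 with ethanol and 25875, 27395, 28908 and 26569 with Dex, with a log2 fold change of 1.87 ± 0.14 (SE, adjusted p = 2.21e-09, limma). Pttg1ip, which encodes a binding partner of securin, rose by 0.58 on the log2 scale from ethanol readings between 16611 and 19680. Prune2, a gene whose product carries a BCH domain, rose by 0.73 from readings between 8082 and 10787. Among the losses, Popdc3, a Popeye family membrane protein of muscle, read 11361, 11179.8, 13164 and 12933 with ethanol and 8150.3, 7230.4, 8739 and 8364 with Dex. Its groups lay apart, with a log2 fold change of -0.58 ± 0.088 (SE, adjusted p = 0.000127, limma). Zfp36l1, an mRNA-decay factor, fell by 0.59 on the log2 scale. Spon2, a secreted matrix protein, had a log2 fold change of -1.04 ± 0.20 (SE, adjusted p = 0.00236, limma), but its ethanol readings ran from 4089 to 11256 and its lowest ethanol reading lay only just above its highest Dex reading of 4070.0. With an intensity trend and a robust prior Spon2 lost its call, and the means of probes gave -0.50 for Spon2 and 0.31 for Prune2.

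Sequence near the start of these genes was read from the RefSeq promoter table of assembly GRCm38.p6, 250 bases before to 50 after each start. Of the 19053 genes, 12631 had exactly 1 promoter in it, among them 302 of the genes that rose and 231 of those that fell. The palindromic core of the glucocorticoid response element, searched as ACANNNTGT, stood in 714 of the 12631 (5.65%), in 21 of the 302 (6.95%) and in 8 of the 231 (3.46%). Among genes changed at least 1.5-fold it stood in 9 of 99 that rose (9.09%) and in 0 of 43 that fell, a count of 0 that allows a share of up to 6.98%. In the 2 brightest bins as a whole the share was 3.22%. The letters read alike on both strands, so 1 search covers both. A match is a string of letters and not a mapped binding site, and response elements farther from the start lie outside these windows.

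The fuller element, the motif AGAACA joined to that core, was rarer. It stood in 43 of the 12631 promoters (0.340%) and in 2 of the 302 of the genes that rose, Slc10a6 and Trim63. Slc10a6 encodes a transporter of steroid sulfates and Trim63 the muscle ubiquitin ligase MuRF1. Their promoters are shown because they hold the fuller element, with that of Serpina3n, the gene with the largest rise, and that of Map3k6, a kinase gene described below, for the core alone. Each is written 5′ to 3′ on the strand of its gene, with the core in capitals.
Slc10a6 (chr5:103629354-103629653, minus strand): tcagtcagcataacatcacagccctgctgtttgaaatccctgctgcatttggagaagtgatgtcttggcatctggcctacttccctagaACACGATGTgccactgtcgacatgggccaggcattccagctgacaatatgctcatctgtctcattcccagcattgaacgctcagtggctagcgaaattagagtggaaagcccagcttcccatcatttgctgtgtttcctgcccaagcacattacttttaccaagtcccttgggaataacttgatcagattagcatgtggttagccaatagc
Trim63 (chr4:134314870-134315169, plus strand): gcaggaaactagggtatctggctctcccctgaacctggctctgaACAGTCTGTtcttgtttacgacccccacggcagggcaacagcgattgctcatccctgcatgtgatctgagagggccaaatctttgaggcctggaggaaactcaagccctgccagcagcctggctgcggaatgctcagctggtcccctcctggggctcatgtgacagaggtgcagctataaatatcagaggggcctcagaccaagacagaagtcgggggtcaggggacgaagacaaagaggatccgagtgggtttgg
Serpina3n (chr12:104406458-104406757, plus strand): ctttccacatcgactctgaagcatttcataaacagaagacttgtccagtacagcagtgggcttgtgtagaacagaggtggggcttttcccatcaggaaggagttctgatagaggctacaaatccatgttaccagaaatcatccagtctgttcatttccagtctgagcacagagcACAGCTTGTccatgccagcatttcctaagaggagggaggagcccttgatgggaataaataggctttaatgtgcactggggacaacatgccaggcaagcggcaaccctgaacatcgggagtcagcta
Map3k6 (chr4:133240568-133240867, plus strand): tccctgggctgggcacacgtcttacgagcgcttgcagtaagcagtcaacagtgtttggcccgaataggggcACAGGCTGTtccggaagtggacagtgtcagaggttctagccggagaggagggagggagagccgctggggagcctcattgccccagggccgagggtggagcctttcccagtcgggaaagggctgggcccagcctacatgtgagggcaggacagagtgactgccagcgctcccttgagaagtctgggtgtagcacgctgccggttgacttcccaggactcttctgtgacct
The core begins at base -161 from the start in Slc10a6, -206 in Trim63, -76 in Serpina3n and -179 in Map3k6.

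These 4 genes were taken from those called higher. Slc10a6 read 98.9, 96.2, 102 and 110.0 with ethanol and 419, 479, 496 and 446 with Dex, with a log2 fold change of 2.18 ± 0.087 (SE, adjusted p = 4.75e-14, limma), and both of its probes were called. Trim63 read 481, 470.4, 314 and 419 with ethanol and 909, 779, 933 and 592 with Dex, with a log2 fold change of 0.93 ± 0.14 (SE, adjusted p = 0.000103, limma). Serpina3n, an acute-phase protease inhibitor, went from at most 115 on the ethanol arrays to at least 2236 on the Dex arrays. Within each of these genes the lowest Dex reading lay above the highest ethanol reading. Other genes called higher with the core included Ctla2b, a cysteine protease inhibitor gene (1.88), Usp54, a ubiquitin-specific protease homologue (1.37), and Omd, the small proteoglycan osteomodulin (1.32). The mean of the 2 probes of Usp54 gave 0.68. The 8 genes called lower with the core each fell by less than 1.5-fold, and the one with the smallest p was Tm4sf1, a membrane protein gene (-0.48).

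Other motifs were searched in the same windows, on both strands. The kappa B site, where NF-kB factors bind, stood in 8.97% of all promoters, in 13.2% of those of genes that rose and in 6.93% of those of genes that fell, and among genes changed at least 1.5-fold in 17.2% and 4.65%. The motif AGAACA alone stood in 16.1%, 13.2% and 12.1%, and among genes changed at least 1.5-fold in 19.2% of those that rose and 14.0% of those that fell. The AP-1 site TGANTCA stood in 7.09%, 4.97% and 6.49%, the cyclic AMP element TGACGTCA in 2.44%, 2.65% and 2.16%, the E-box CACGTG in 8.27%, 10.6% and 9.09% and the TATA box in 13.3%, 9.60% and 13.9%. For rises and falls of at least 1.5-fold the shares were 7.07% and 4.65% for the AP-1 site, 2.02% and 2.33% for the cyclic AMP element, 13.1% and 6.98% for the E-box and 11.1% and 14.0% for the TATA box. CpG-rich promoters made up 41.1% of all, 55.6% of those of genes that rose and 61.9% of those of genes that fell, beside 64.2% in the 2 brightest bins. Among genes changed at least 1.5-fold it was 40.4% of those that rose and 51.2% of those that fell. In the 2 brightest bins as a whole, the kappa B site stood in 9.63% of promoters, the motif AGAACA in 11.8% and the AP-1 site in 4.13%. There the cyclic AMP element stood in 3.73%, the E-box in 10.7% and the TATA box in 7.51%. Most called genes were bright, so these shares are the nearer background.

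For a view by function, genes were placed by symbol into 90 classes such as kinases, ion channels or tubulins, and a gene may be in several. The classes hold 10537 genes, 462 of them called, and 388 of the 8516 genes outside any class were called (4.56%). Counts in a class are read beside 4.46% called among all genes and a median log2 fold change of 0.0030 over all genes. Within the 2 brightest bins 746 of 7621 genes were called (9.79%), which is the nearer background for classes of bright genes. These bins rank by both 6 h groups, so a class share within them can be raised by the changes of its own members. Of 73 genes of the third bin by the 6 h ethanol mean that reached the 2 brightest bins, 29 were called (39.7%). Signalling classes together had 111 called of 1539 (7.21%), metabolic enzymes outside central carbon pathways 58 of 788 (7.36%), and cytoskeleton and cell surface genes 57 of 795 (7.17%). Transcription and chromatin genes had 44 of 1161 (3.79%), and membrane transport genes 32 of 780 (4.10%). Within the 2 brightest bins the signalling share was 15.1%, that of cytoskeleton and cell surface genes 16.9% and that of transcription and chromatin genes 8.53%.

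**Figure D3:**
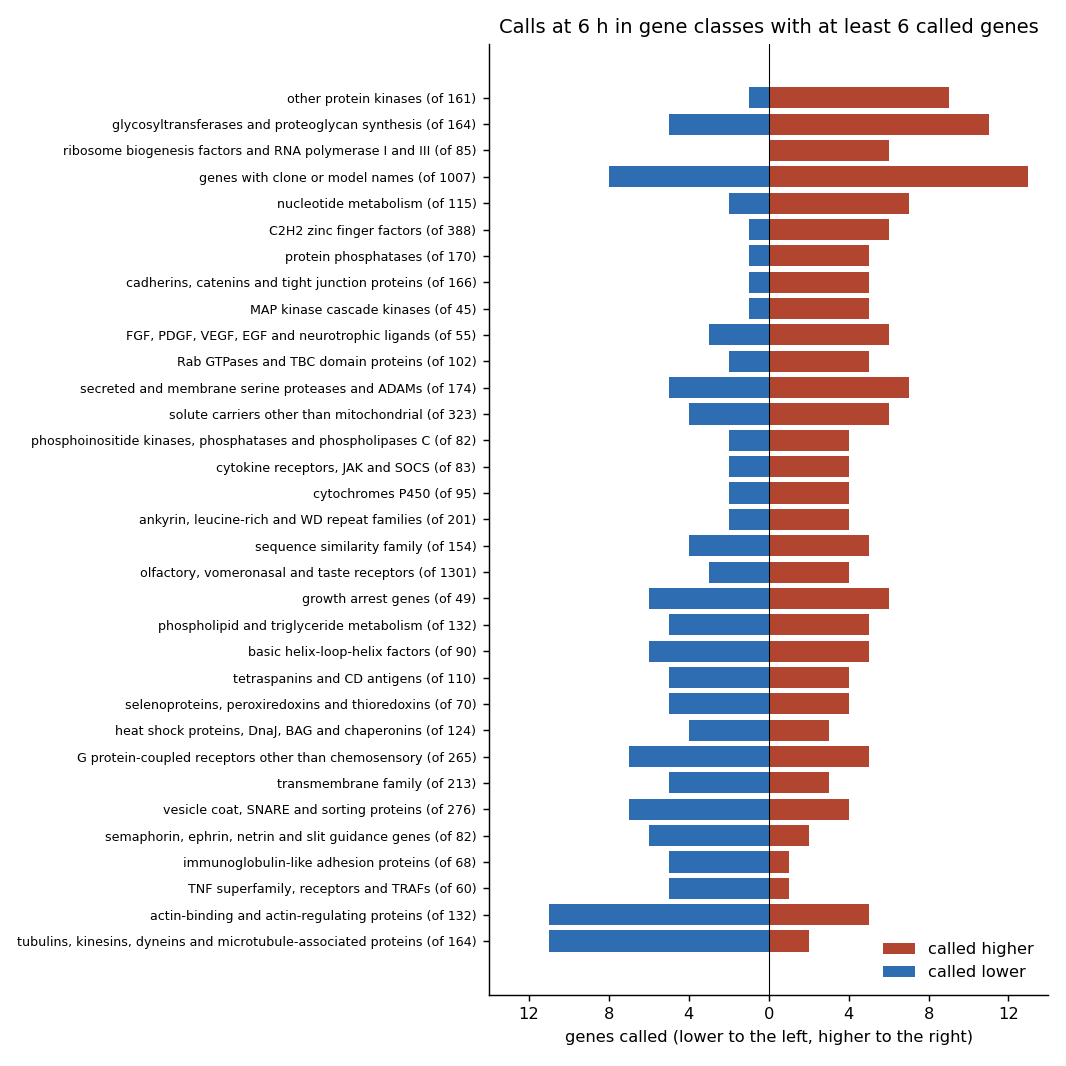
Bars give, for each of 33 gene classes with at least 6 called genes, the number called lower (left) and higher (right) with Dex at 6 h, with the number of genes measured in the class in brackets. Protein kinases outside the MAP kinase cascades (9 higher, 1 lower) lie at one end, and tubulins, kinesins and dyneins (2 higher, 11 lower) at the other.

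Among secreted growth factors, the ligands of the FGF, PDGF, VEGF, EGF and neurotrophic families, 6 of 55 rose and 3 fell (16.4% called; class median 0.028). Vegfd, which signals for lymphatic and blood vessel growth, rose the most. It read 201, 186, 189.8 and 207 with ethanol and 599, 651, 639.5 and 569 with Dex, with a log2 fold change of 1.65 ± 0.10 (SE, adjusted p = 1.78e-10, limma). All its Dex readings lay at more than 2 times any ethanol reading. Pdgfc, a ligand for platelet-derived growth factor receptors, rose by 0.69, Fgf10 by 0.64, and the neurotrophin gene Bdnf by 0.48. Artn, the neurotrophic factor artemin, fell. It read 205, 202, 219 and 206 with ethanol and 118, 104, 118 and 112 with Dex, with a log2 fold change of -0.88 ± 0.074 (SE, adjusted p = 1.96e-08, limma), and its groups lay apart. The mean of its 4 probes gave -0.32. Hbegf, a ligand of the EGF receptor, and Vegfa, the main vascular growth factor, fell by 0.70 and 0.52 on the log2 scale. Members of the same ligand family thus moved in opposite directions, with Vegfd up and Vegfa down. Outside the class, Bmp8a, a bone morphogenetic protein gene, read 115, 114, 102 and 107 with ethanol and 324, 326, 311 and 270.3 with Dex, with a log2 fold change of 1.49 ± 0.091 (SE, adjusted p = 1.2e-10, limma), and Grem1, a secreted antagonist of such proteins, fell by 0.78. By probe means Pdgfc gave 0.27, Hbegf -0.36 and Vegfa -0.26, and Bdnf was not called (0.099).

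Among receptor genes, the shares called were lower than among these ligands. Of 54 receptor tyrosine kinases, 3 rose and 1 fell (7.41%). Mertk, which lets cells take up dying cells, read 116, 118, 119.7 and 119 with ethanol and 309, 298, 330.5 and 334 with Dex. The ethanol readings lay close together and every Dex reading lay well above them, with a log2 fold change of 1.43 ± 0.09 (SE, adjusted p = 1.91e-10, limma). Pdgfrb, the other PDGF receptor, fell. It read 357, 395, 444 and 376 with ethanol and 220.2, 186, 201 and 219 with Dex, with a log2 fold change of -0.93 ± 0.10 (SE, adjusted p = 2.09e-06, limma), so the 2 PDGF receptor genes moved apart. Of 265 G protein-coupled receptors outside the chemosensory families 5 rose and 7 fell (4.53%), beside 4.46% of all genes. Only 39 of them lie in the 2 brightest bins, and 9 of those were called (23.1%), beside 9.79% of all genes there. Genes that rose can count as bright through their Dex readings, as Npy1r did. Npy1r, a receptor of neuropeptide Y, read 136, 119.8, 117 and 111 with ethanol and 279, 273, 324 and 277 with Dex, with a log2 fold change of 1.25 ± 0.11 (SE, adjusted p = 2.74e-08, limma). Adgra3, an adhesion receptor, fell, with readings of 1072, 1022, 1004 and 1035 with ethanol and 628, 674, 655 and 640.0 with Dex. The chemokine receptor gene Cxcr4 had a log2 fold change of -0.72. Of 83 cytokine receptor, JAK and SOCS genes 4 rose and 2 fell (7.23%). The class was taken by symbol and also holds Il1rn, the interleukin-1 receptor antagonist, which rose by 0.90. Il6ra, the interleukin-6 receptor, read 115, 119, 109 and 123 with ethanol and 233, 299, 211 and 217 with Dex, with a log2 fold change of 1.03 ± 0.11 (SE, adjusted p = 4.38e-07, limma). Averaged over their 3 and 4 probes, Il6ra gave 0.47 and Il1rn 0.28. In the TNF superfamily with its receptors and adaptors 1 of 60 rose and 5 fell (6 called; median -0.043). Traf4, an adaptor, read 1198, 1330.3, 1667 and 1608 with ethanol and 793, 939, 805 and 1053 with Dex, and all 4 of its probes were called lower, with a log2 fold change of -0.69 ± 0.11 (SE, adjusted p = 0.00035, limma). The death receptor gene Fas fell by 0.44, and Tnfrsf11b, which encodes osteoprotegerin, by 0.32. The call of Tnfrsf11b was lost without Dex replicate 1 or 2 or ethanol replicate 1, 3 or 4 (limma adjusted p up to 0.131), and that of Fas in 5 such fits (up to 0.121). The TNF class had 1 call without Dex replicate 2 and 3 without ethanol replicate 3 or 4, and the G protein-coupled receptors had 7 without ethanol replicate 3.

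More protein kinases rose than fell. Of 45 kinases of the MAP kinase cascades, 5 rose and 1 fell (13.3%), and of 161 other protein kinases 9 rose and 1 fell (6.21%; median 0.019). Within the 2 brightest bins the shares were 20.8% and 10.8%, beside 9.79% of all genes there. Map3k6, an upstream kinase of stress-activated cascades, read 295, 281, 214 and 237 with ethanol and 704, 717, 656 and 536 with Dex, with a log2 fold change of 1.35 ± 0.11 (SE, adjusted p = 7.95e-09, limma) and both probes called. Mknk2, a kinase of the cap-binding factor eIF4E, read 5764, 5211, 7357 and 6681 with ethanol and 11325, 9329.8, 11025 and 10588 with Dex, with a log2 fold change of 0.77 ± 0.097 (SE, adjusted p = 1.15e-05, limma). Mapk14, the p38 alpha kinase, rose by 0.60. Among the other kinases, Sik1, a salt-inducible kinase, and Pak3, an effector of small GTPases, each rose by 0.75, Mylk2, the myosin light chain kinase of skeletal muscle, by 0.57, and Prkaa2, a catalytic subunit of AMP-activated kinase, by 0.45. Prkar2b, a regulatory subunit of cyclic AMP-dependent kinase, is counted among the cyclic nucleotide enzymes and anchors. It read 2081, 1694, 1487 and 1732 with ethanol and 3532, 4347, 4191 and 3404 with Dex, with a log2 fold change of 1.15 ± 0.096 (SE, adjusted p = 1.76e-08, limma), and 0.63 with the mean of its 2 probes. Of 170 phosphatases by symbol 5 rose and 1 fell (3.53%). They include Tns1, the adhesion protein tensin, which shares only the fold of a phosphatase. Tns1 had a log2 fold change of 1.29 ± 0.10 (SE, adjusted p = 7.82e-09, limma), and the mean of its 2 probes gave 0.66. Dusp1, a phosphatase that switches off MAP kinases, rose from readings between 4669 and 5073 to readings between 7461 and 7930.5, while Dusp4, of the same family, had a log2 fold change of -0.76. With the mean of probes Dusp4, Mylk2 and Prkaa2 were not called. Without Dex replicate 3 the other kinases had 5 calls, and those of Mylk2 and Prkaa2 were among the lost.

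Other genes of G protein signalling moved both ways. Rerg, a growth-inhibiting Ras relative, read 383, 366, 361 and 304 with ethanol and 149.7, 139, 134 and 136 with Dex, with a log2 fold change of -1.34 ± 0.089 (SE, adjusted p = 4.89e-10, limma). Its groups lay apart. Rasl12, another Ras relative, rose by 0.71 (mean of probes 0.37). Among guanine nucleotide exchange factors, Net1 read 341, 319, 327 and 334 with ethanol and 1035, 859, 953 and 802 with Dex, with a log2 fold change of 1.46 ± 0.11 (SE, adjusted p = 4.68e-09, limma), and 0.87 with the mean of 3 probes. Vav2, which is regulated by tyrosine phosphorylation, rose by 0.83, or 0.22 with the mean of its 4 probes. Mcf2l read 263, 291, 272 and 260.5 with ethanol and 657, 851, 819 and 1042 with Dex, with a log2 fold change of 1.61 ± 0.10 (SE, adjusted p = 1.78e-10, limma) and 0.75 with the mean of its probes. Of 59 G protein subunits and RGS proteins 3 rose and 1 fell (6.78%). Rgs2, which shortens G protein signals, had a log2 fold change of 0.74 ± 0.078 (SE, adjusted p = 6.96e-07, limma), from at most 103 on the ethanol arrays.

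**Figure D4:**
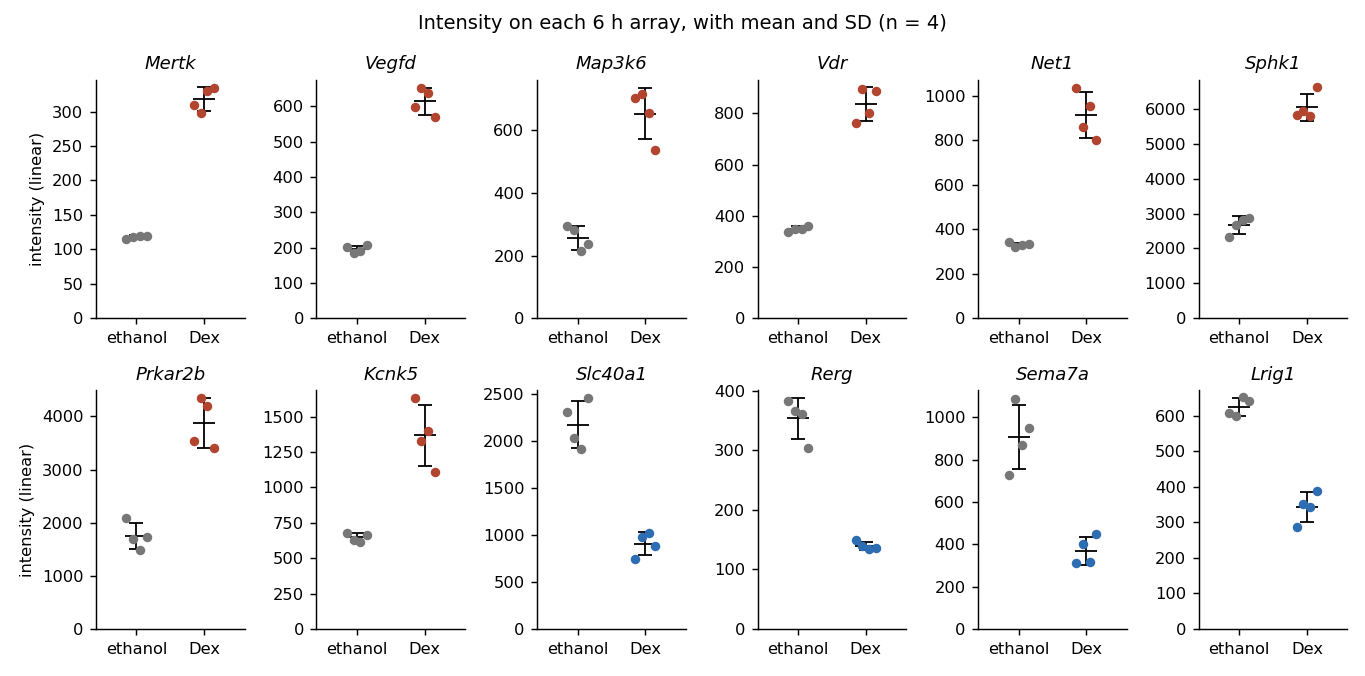
Each panel shows the linear intensity of a gene on the 4 ethanol (grey) and 4 Dex (coloured) arrays at 6 h, with the mean and SD as black bars; each vertical axis starts at 0 and has its own scale. In all 12 genes the groups do not overlap: Mertk, Vegfd, Map3k6, Vdr, Net1, Sphk1, Prkar2b and Kcnk5 are higher with Dex and Slc40a1, Rerg, Sema7a and Lrig1 are lower.

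Among transcription factors, the basic helix-loop-helix family stood out by its share of calls, with 5 of 90 higher and 6 lower (12.2%), or 11 of the 32 in the 2 brightest bins. Tcf23, a factor that can inhibit other members of the family, read 155, 131, 132 and 144 with ethanol and 299, 306, 347 and 259.6 with Dex, with a log2 fold change of 1.10 ± 0.091 (SE, adjusted p = 1.45e-08, limma). Mxd4, an antagonist of Myc, rose by 0.71, and Twist2, a repressor of differentiation, by 0.52. Id2, an inhibitor without a DNA-binding region, had a log2 fold change of -0.84, and Bhlhe40, a clock-linked repressor, -0.62. Of 44 nuclear receptors, the family of the glucocorticoid receptor itself, only Vdr, the vitamin D receptor, was called (2.27%). It read 337, 349, 350.1 and 360.3 with ethanol and 764, 897, 799.9 and 889 with Dex, with a log2 fold change of 1.26 ± 0.12 (SE, adjusted p = 2.14e-07, limma). Of 43 forkhead genes 3 rose and none fell (6.98%), among them Foxc1 (0.58) and Foxp1 (0.58). Of 123 homeobox genes none was called, and 8 had groups that did not overlap (10.9% of all genes did). Of 388 zinc finger genes of the C2H2 kind by symbol 6 rose and 1 fell (1.80%). They include Zfp36, which carries another kind of finger and destabilises inflammatory mRNAs. Zfp36 read 484, 482, 404 and 418 with ethanol and 728, 731, 697 and 651 with Dex, with a log2 fold change of 0.65 ± 0.10 (SE, adjusted p = 0.000146, limma), and its relative Zfp36l1 moved the other way. The C2H2 class had 17 calls without Dex replicate 4, 12 without ethanol replicate 1 and 4 without Dex replicate 2 or 3 or ethanol replicate 4, and the helix-loop-helix class had 7 without ethanol replicate 3. Single arrays ended the call of Twist2 (limma adjusted p up to 0.107), and the mean of probes gave -0.50 for Id2. Sox9, a regulator of cartilage genes, read 5647, 5901, 5699 and 6541 with ethanol and 4090.2, 3695, 3977 and 3512 with Dex, with a log2 fold change of -0.64 ± 0.098 (SE, adjusted p = 0.000146, limma) and both probes called.

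Among genes of RNA handling and translation 11 of 359 rose and 6 fell (4.74%). Of 85 ribosome biogenesis and RNA polymerase I and III genes 6 rose and none fell (7.06%; median 0.020), each by less than 1.5-fold. All 6 were among the 57 members in the 2 brightest bins, a share close to the 9.79% of all genes called there. They were Wdr43 (0.50), Rrp1b (0.55), Heatr1 (0.40), Nop56 (0.32), Utp4 (0.30) and Wdr75 (0.28), factors that process or assemble precursors of the ribosome. Wdr43 read 458, 552, 514 and 545 with ethanol and 782, 694, 710.3 and 737 with Dex, and its groups lay apart (mean of probes 0.23). Leaving out single arrays ended the calls of Nop56, Utp4 and Wdr75 (limma adjusted p up to 0.137, 0.0718 and 0.119), and with the mean of probes Heatr1, Rrp1b and Wdr75 were not called. The class had 3 calls without Dex replicate 3 and 10 without Dex replicate 4. Of 98 splicing and RNA-binding genes 1 rose and 3 fell (4.08%), and of 63 translation factors 2 rose and 1 fell (4.76%). Eif5a, the factor that carries hypusine, fell, with readings of 3462, 3871, 4537 and 4559 with ethanol and 2507, 2646, 2798 and 3232 with Dex and a log2 fold change of -0.55 ± 0.10 (SE, adjusted p = 0.00108, limma). Its other probes differed in size, at -0.21, which was not called, and -1.39. The translation factors had 7 calls without Dex replicate 4 and 1 without Dex replicate 3 or ethanol replicate 3 or 4. The splicing class had 7 without Dex replicate 4 and 2 without Dex replicate 1 or 2 or ethanol replicate 2.

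Transport genes as a whole were called at 4.10%, beside 4.46% of all genes. In the 2 brightest bins 28 of 216 were called, a larger share than the 9.79% of all genes there. Of 323 solute carriers outside mitochondria 6 rose and 4 fell (3.10%). Slc40a1, ferroportin, the iron exporter of the cell, fell. It read 2305, 2026, 1911 and 2449.6 with ethanol and 742, 977, 1023 and 878 with Dex, with a log2 fold change of -1.27 ± 0.13 (SE, adjusted p = 5.66e-07, limma), and the mean of its 2 probes gave -0.63. Of 45 heme and iron genes, Slc40a1 among them, 1 rose and 3 fell (8.89%), or 10.3% in the 2 brightest bins. Cp, which encodes the ferroxidase ceruloplasmin, rose by 0.71, and 3 of its 4 probes were called (mean 0.43). Without Dex replicate 3 the iron class had 2 calls. Of 88 potassium channel genes 4 rose and none fell (4.55%), the 4 being all but 1 of the 5 that lie in the 2 brightest bins. Kcnk5, a background potassium channel, read 679.9, 629, 614 and 663 with ethanol and 1634, 1328, 1399.7 and 1111 with Dex, with a log2 fold change of 1.07 ± 0.11 (SE, adjusted p = 7.03e-07, limma), and 2 of its 3 probes were called (mean of probes 0.61). Kcnn1, a calcium-activated channel, and Kcnj12, an inward rectifier, rose by 0.35 and 0.54. Of 31 aquaporins, connexins and pannexins 1 rose and 3 fell (12.9%). Aqp5, a water channel, read 4707, 5819, 6677 and 5303 with ethanol and 2991, 2984, 3034 and 4328 with Dex, with a log2 fold change of -0.76 ± 0.13 (SE, adjusted p = 0.000497, limma), and Dex replicate 4 stood above the other Dex arrays. Gja1, connexin 43, read 5064, 5357, 4927 and 4464 with ethanol and 3057, 3391, 3386 and 3879.5 with Dex, with a log2 fold change of -0.53 ± 0.099 (SE, adjusted p = 0.00133, limma). The muscle connexin gene Gjd4 rose by 1.08, or 0.56 with the mean of 2 probes. The drug exporter gene Abcb1b read 196, 176, 151 and 157 with ethanol and 362, 453, 409 and 372 with Dex, with a log2 fold change of 1.23 ± 0.10 (SE, adjusted p = 1.93e-08, limma).

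Of 788 enzymes outside the central carbon pathways 25 were called with a change of at least 1.5-fold, beside 250 of all 19053 genes (1.31%). Of 164 glycosyltransferase and proteoglycan synthesis genes 11 rose and 5 fell (9.76%). Hs3st3a1, which sulfates heparan chains, read 341, 349, 274 and 315 with ethanol and 603, 669, 646 and 579 with Dex, with a log2 fold change of 0.97 ± 0.10 (SE, adjusted p = 9.74e-07, limma). Chst15, a chondroitin sulfotransferase, rose by 0.82 on both probes, and Sulf2, an enzyme that removes heparan sulfates at the cell surface, by 0.88. Has2, which makes hyaluronan, fell, with a log2 fold change of -0.60. Without Dex replicate 2 or ethanol replicate 3 this class had 9 calls, and the mean of probes gave 0.39 for Sulf2. Of 115 nucleotide metabolism genes 7 rose and 2 fell (7.83%). The members that fell were Dpysl2 and Dpysl3, placed there by their symbols but known as regulators of the growth cone cytoskeleton. Nt5e, the ecto-nucleotidase CD73 that makes adenosine, read 689.9, 629.8, 479.5 and 539.6 with ethanol and 1344, 1404, 1236 and 1011 with Dex, with a log2 fold change of 1.10 ± 0.12 (SE, adjusted p = 9.11e-07, limma) and both probes called. Ampd3, which deaminates AMP, read 1217, 1137, 1437 and 1456 with ethanol and 2370.0, 2524, 2711 and 2755 with Dex, with a log2 fold change of 0.99 ± 0.10 (SE, adjusted p = 3.82e-07, limma), and 0.47 with the mean of 2 probes. Of 60 sphingolipid genes 3 rose and 1 fell (6.67%), or 8.82% in the 2 brightest bins, beside 9.79% of all genes there. Sphk1, which makes sphingosine 1-phosphate, read 2322, 2675, 2818 and 2865 with ethanol and 5828, 5937, 5803 and 6618 with Dex, with a log2 fold change of 1.18 ± 0.096 (SE, adjusted p = 1.28e-08, limma) (mean of 3 probes 0.54). Of 132 phospholipid and triglyceride genes 5 rose and 5 fell (7.58%). Pld1, which makes phosphatidic acid, read 204, 201, 193 and 204 with ethanol and 456, 469, 438 and 418 with Dex, with a log2 fold change of 1.15 ± 0.075 (SE, adjusted p = 2.87e-10, limma). H6pd, which supplies NADPH to the glucocorticoid-activating enzyme in the endoplasmic reticulum, read 817, 669.6, 681 and 728 with ethanol and 1458, 1506, 1563 and 1278 with Dex, with a log2 fold change of 1.00 ± 0.085 (SE, adjusted p = 2.09e-08, limma).

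Falls outnumbered rises in the microtubule and actin classes. Of 164 tubulins, kinesins, dyneins and microtubule-associated proteins 2 rose and 11 fell (7.93%; median -0.034), each by less than 1.5-fold. Ttll5, a tubulin ligase gene, read 1938, 1871, 2259.7 and 1947 with ethanol and 1209, 1456, 1284 and 1610.4 with Dex, with a log2 fold change of -0.53 ± 0.095 (SE, adjusted p = 0.0009, limma). The alpha tubulin gene Tuba1a had a log2 fold change of -0.43 and the dynein light chain gene Dynll1 -0.41. Single arrays ended the call of Dynll1 (limma adjusted p up to 0.0687, the highest of 4 such arrays) and of Tuba1a (up to 0.13), and the groups of both genes overlapped. Of 132 actin-binding and actin-regulating genes 5 rose and 11 fell (12.1%; median -0.0066). Tpm1, a tropomyosin, read 8167, 7523, 8642 and 7012 with ethanol and 5051, 5132, 4732 and 5395 with Dex, with a log2 fold change of -0.62 ± 0.091 (SE, adjusted p = 8.1e-05, limma). Pfn2, a profilin, and Synpo, synaptopodin, fell by 0.49 and 0.48, whereas the formin gene Fmnl2 rose by 0.46 and the actin cross-linker Actn1 by 0.47. None of 30 unconventional and non-muscle myosins was called, and 1 had groups that did not overlap (10.9% of all genes did). The tubulin class had 4 calls without Dex replicate 2, 5 without Dex replicate 1, 7 without ethanol replicate 3 and 8 without Dex replicate 3 or ethanol replicate 2. The actin class had 9 without Dex replicate 3 and 10 without Dex replicate 1 or 2 or ethanol replicate 3. By probe means Ttll5 gave -0.22 and Fmnl2 0.23, and Pfn2 was not called.

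Classes of surface proteins differed in direction. Of 82 semaphorin, ephrin, netrin and slit genes 2 rose and 6 fell (9.76%; median -0.031). Sema7a, a membrane-anchored semaphorin, read 727, 1088, 872 and 950.2 with ethanol and 311, 403, 316 and 447 with Dex, with a log2 fold change of -1.30 ± 0.15 (SE, adjusted p = 1.9e-06, limma), and 1 of its 3 probes was called (mean -0.54). Slit2, a secreted guidance cue, and Efna5, an ephrin, fell by 0.52 and 0.54, with groups that overlapped. Single arrays ended both calls (limma adjusted p up to 0.139 and 0.0616), and Slit2 was not called with the mean of its 7 probes. The class had 4 calls without ethanol replicate 3 and 5 without Dex replicate 2 or 3. Of 68 immunoglobulin-like adhesion genes 1 rose and 5 fell (8.82%). Lrig1, an inhibitor of EGF receptor signals, read 608, 601, 654 and 641 with ethanol and 287, 351, 345 and 390.0 with Dex, with a log2 fold change of -0.87 ± 0.086 (SE, adjusted p = 2.43e-07, limma). Cdon, a co-receptor that promotes muscle differentiation, read 2812, 2311, 2622 and 1989 with ethanol and 1616, 1359.6, 1357 and 1332 with Dex, with a log2 fold change of -0.77 ± 0.099 (SE, adjusted p = 1.29e-05, limma) (-0.43 with the mean of probes). The one member that rose was Igsf3 (0.55). Of 166 cadherins, catenins and junction genes 5 rose and 1 fell (3.61%), with the desmosomal plakophilin gene Pkp1 at 0.65 and the junction adhesion gene Jam2 at -0.47. The Jam2 value was 1 of 6 probes, and their mean was not called (-0.14). Without Dex replicate 3 the junction class had 3 calls. In the dystrophin, dysferlin and caveolae class 2 of 43 rose (4.65%), Dtna, dystrobrevin alpha, by 1.32 and Ehd3, a membrane-shaping protein, by 1.13.

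In 3 families of ubiquitin ligase genes the called genes were all higher. Of 61 TRIM genes 3 rose, of 84 F-box and cullin genes 3, and of 133 RING finger genes 4, and none fell in these classes (4.92%, 3.57% and 3.01% called). These shares lie near or under 4.46%, and the F-box class had 1 call without Dex replicate 1 or ethanol replicate 3. Within the 2 brightest bins the shares were 15.8%, 4.17% and 4.29%, beside 9.79% of all genes there. Beside Trim63, the F-box gene Fbxo32 (atrogin-1) read 387, 401, 433 and 393 with ethanol and 666, 589, 578 and 619 with Dex and all 3 of its probes were called. Trim26, a regulator of antiviral signals, read 1316, 1236, 1131 and 1295 with ethanol and 1771, 1930.1, 1867 and 1651 with Dex, with a log2 fold change of 0.54 ± 0.099 (SE, adjusted p = 0.00121, limma). Of 117 BTB-kelch, SOCS-box and HECT ligase genes 3 rose and 1 fell (3.42%), and 7 were called without ethanol replicate 2. The one that fell was the HECT ligase gene Huwe1 (-0.34), which was not called by probe means (-0.035) or without each of 6 single arrays (limma adjusted p up to 0.18). Spsb1, a SOCS-box adaptor of ubiquitin ligases, read 2019, 1763, 1857 and 2107 with ethanol and 4364, 4069.8, 4379.5 and 3489 with Dex, with a log2 fold change of 1.07 ± 0.11 (SE, adjusted p = 9.8e-07, limma) and a mean of 2 probes of 0.54. Of 174 serine protease and ADAM genes 7 rose and 5 fell (6.90%). Adamts4, an aggrecanase, read 1689.7, 1783, 2214 and 2759.5 with ethanol and 764, 898, 914 and 942 with Dex, with a log2 fold change of -1.24 ± 0.12 (SE, adjusted p = 2.54e-07, limma). The kallikrein gene Klk1b26 read 171, 216, 176 and 143 with ethanol and 762, 518, 467 and 597 with Dex, with a log2 fold change of 1.72 ± 0.17 (SE, adjusted p = 2.43e-07, limma). It and 3 called relatives, Klk1b21, Klk1b22 and Klk1b27, belong to a family of near-identical copies, and whether their probes tell the copies apart was not tested. Among 49 calpains, cathepsins and caspases 3 rose and 2 fell (10.2%). The inflammatory caspase genes Casp1 (0.88), Casp4 (0.65) and Casp12 (0.27) rose, though the call of Casp12 and that of Casp1 were lost as single arrays were left out (limma adjusted p up to 0.13 and 0.0829). This class had 2 calls without Dex replicate 2 or ethanol replicate 4 and 3 without Dex replicate 3 or ethanol replicate 3, and Casp4 gave 0.41 with the mean of probes. Ctsz, a lysosomal cathepsin, fell by 0.59. None of 147 genes of antigen presentation and immune receptors was called, and 10 had groups that did not overlap (10.9% of all genes did). Among 83 interferon-inducible genes 1 rose and 4 fell (6.02%). The one that rose, Ifi207, a DNA sensor family gene, read 118, 97.2, 99.7 and 109 with ethanol and 270.0, 354, 307 and 224 with Dex, with a log2 fold change of 1.43 ± 0.12 (SE, adjusted p = 3.02e-08, limma). The interferon class had 2 calls without Dex replicate 3 and 3 without ethanol replicate 3.

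Growth arrest genes had the largest share of calls among classes with at least 5 called genes. Of 49 genes of the Btg, Tob, Gadd45, Ndrg and Gas groups and related stress genes 6 rose and 6 fell (24.5%; 34.4% in the 2 brightest bins). Sesn1, which restrains growth signalling in stressed cells, read 4161, 3664, 2979 and 3337 with ethanol and 9030.1, 9746, 8943 and 7413 with Dex, with a log2 fold change of 1.32 ± 0.11 (SE, adjusted p = 1.45e-08, limma) and all 3 probes called. Ier3, a survival gene of the immediate-early kind, read 2717, 3805, 2738 and 2838 with ethanol and 1375, 1651, 1429.8 and 1859.8 with Dex, with a log2 fold change of -0.93 ± 0.12 (SE, adjusted p = 1.63e-05, limma). Gas7, a gene of growth-arrested cells, rose by 0.98. Close relatives moved apart, as Tob2 rose by 0.40 and Tob1 fell by 0.36, both of them antiproliferative. The call of Tob2 did not survive the loss of single arrays (limma adjusted p up to 0.106), nor did that of Tob1 (up to 0.0515). The class had 6 calls without Dex replicate 2 or ethanol replicate 3 and 7 without Dex replicate 3 or ethanol replicate 4. Among 35 p53 target genes 4 rose and 1 fell (14.3%). Trp53inp1, a stress-induced partner of p53, read 691, 498, 608 and 621 with ethanol and 1512, 1525, 1742 and 1343 with Dex, with a log2 fold change of 1.34 ± 0.11 (SE, adjusted p = 1.45e-08, limma). Bbc3, the death-promoting PUMA gene, read 949.7, 922, 809 and 879.9 with ethanol and 1340.4, 1459, 1459.8 and 1347 with Dex, and Bcl2l1, whose main product opposes cell death, read 238, 282, 324 and 277 with ethanol and 493, 445, 466 and 609 with Dex. Their log2 fold changes were 0.66 and 0.84. Probe means were smaller here too, and Bbc3 gave 0.31, Bcl2l1 0.47 and Gas7 0.43. Of 70 selenoprotein, peroxiredoxin and thioredoxin genes 4 rose and 5 fell (12.9%). Glrx, glutaredoxin, read 2958, 2869.6, 2737 and 2446 with ethanol and 4696, 4987, 4737 and 5105 with Dex, with a log2 fold change of 0.83 ± 0.083 (SE, adjusted p = 3.79e-07, limma), while the thioredoxin gene Txn1 had a log2 fold change of -0.56 on 1 of 3 probes, whose mean was not called (-0.19). Without Dex replicate 2 the class had 5 calls. Peroxisome genes were not called (0 of 43), and 2 of them had groups that did not overlap (10.9% of all genes did).

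Of 1710 genes with little annotation, 468 lie in the 2 brightest bins. Of 1007 genes with clone or model names 13 rose and 8 fell (2.09%), or 12.1% of those in the 2 brightest bins, beside 9.79% of all genes there. Of 417 long non-coding RNAs 4 rose and 2 fell (1.44%), or 10.9% of those in the 2 brightest bins. C430049B03Rik, a non-coding RNA, read 295, 342, 286 and 366 with ethanol and 464, 951, 719.8 and 947 with Dex, with a log2 fold change of 1.21 ± 0.19 (SE, adjusted p = 0.000209, limma), and both probes were called. Among protein families known by sequence alone, Fam180a read 459, 320.1, 347 and 259 with ethanol and 2394, 1739, 1772 and 1428 with Dex, with a log2 fold change of 2.41 ± 0.17 (SE, adjusted p = 1.65e-09, limma), with both probes called. Outside that family, Foxred2, an enzyme of protein disposal from the endoplasmic reticulum, rose by 1.79 (mean of probes 1.16) and Lrrc26, a regulator of large potassium channels, by 1.69. Tmem86a, a lipid hydrolase gene, read 1939.6, 1764, 1744 and 1213 with ethanol and 1044, 876, 743 and 825 with Dex, with a log2 fold change of -0.92 ± 0.14 (SE, adjusted p = 0.00014, limma).

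Some called genes lie next to each other. Along the GRCm38.p6 annotation there were 18963 pairs of adjacent measured genes. In 847 of them the first gene was called, and the second was then called in 62 (7.32%), beside 4.46% of all genes. Both moved the same way in 51 of the 62. The Klk1b and caspase genes above lie in such runs. Others are Slc25a33, Spsb1 and H6pd, which rose by 0.44, 1.07 and 1.00, and Irs2, Col4a1 and Col4a2, which rose by 0.84, 1.16 and 0.81. On the falling side lie Slc1a3, a glutamate transporter (-1.30), and Ranbp3l (-0.82), and Fas (-0.44) beside Ch25h (-2.26). Some of these pairs are copies of one another or overlap, and whether a probe reads its neighbour's transcript was not tested. By probe means Ranbp3l was not called. The fall of Slc1a3 had an SE of 0.28 (adjusted p = 0.00607, limma), and the 6 h groups of that gene overlapped.

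Most of the larger early changes were still there at 24 h, on separate arrays with their own controls. The calls at both times rest on 1 shared estimate of spread. Of the 168 genes that rose at least 1.5-fold at 6 h, 142 (84.5%) were called higher at 24 h, and of the 82 that fell as much, 60 (73.2%) were called lower, where 4.47% of all genes were called higher, 4.42% lower and 8.89% in either direction. Of all 472 that rose, 276 (58.5%) were called higher at 24 h and 4 lower. Of all 378 that fell, 151 (39.9%) were called lower and 6 higher. The median change of the genes that rose went from 0.47 at 6 h to 0.34 at 24 h, and that of the genes that fell from -0.42 to -0.17. The Dex effect at 24 h differed from that at 6 h by the limma test of that difference for 63 of the 472 and 37 of the 378, beside 1.22% of all genes. It was smaller or opposite at 24 h for 44 of the 63 and for 35 of the 37. Because these genes were chosen by their 6 h values, smaller changes at 24 h can come from that choice alone. Whether the response faded was not tested.

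A few genes turned. Abra, an actin-binding protein of striated muscle, read 2934, 3052, 2447 and 1958 with ethanol and 4930.5, 3845, 3585 and 3659 with Dex at 6 h, a rise with a log2 fold change of 0.63 ± 0.12 (SE, adjusted p = 0.00243, limma). At 24 h its log2 fold change was -0.61, from 1791 ± 179 with ethanol to 1171 ± 72.7 with Dex (SD, n = 5 each). Hey1, a Notch target, fell at 6 h, with readings of 548, 562, 502 and 576 with ethanol and 364, 424, 418 and 408 with Dex and a log2 fold change of -0.44 ± 0.10 (SE, adjusted p = 0.00904, limma), and rose by 0.38 at 24 h. Lpl, lipoprotein lipase, went from -0.67 to 0.56, Rps3a1, a ribosomal protein gene, from -0.58 to 0.39, and Rrm2b, a subunit of ribonucleotide reductase, from 0.36 to -0.27. The other genes called in opposite directions at the 2 times were D430042O09Rik and Zfp608, up at 6 h, and Afap1l1, C1qtnf3 and Rnu6, down at 6 h. These 10 genes were picked out by their values at both times. Single arrays of 6 h ended the calls of Afap1l1, C1qtnf3, D430042O09Rik, Rnu6 and Lpl (limma adjusted p up to 0.171, 0.19, 0.114, 0.124 and 0.0539), and with the mean of probes Rrm2b and Zfp608 were not called. Vdr had a log2 fold change of 0.23 and no call at 24 h.

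**Figure D5:**
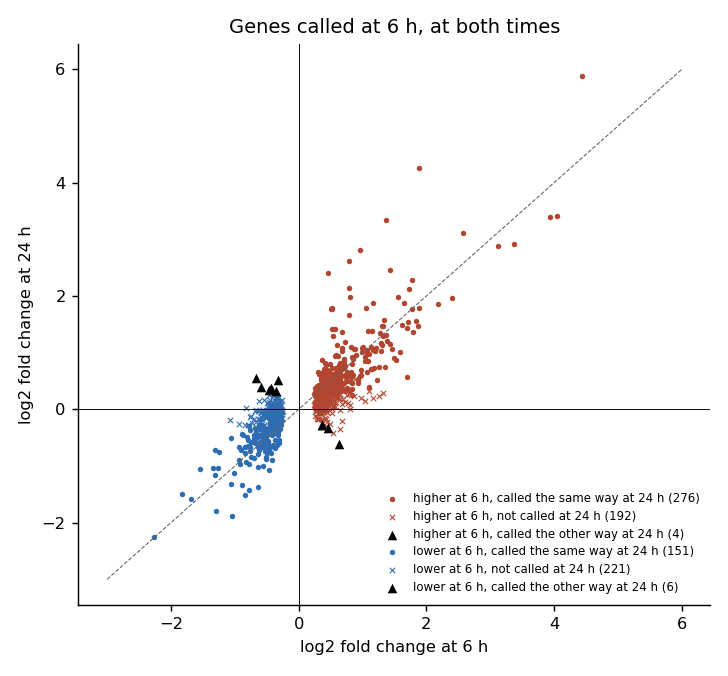
Each point is 1 of the 850 genes called at 6 h, placed by its log2 fold change (Dex minus ethanol) at 6 h and at 24 h; circles were called the same way at 24 h, crosses were not called and black triangles were called the other way. Most points lie in the quadrants of equal sign, 276 rises and 151 falls are circles, 192 and 221 are crosses, and 10 are triangles; the dashed line marks equal change.

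Probes of the same gene did not always agree in size. Of the 167 genes named by the rule given with the processing, leaving out the cell type markers, 93 have several probes. For 24 of them all probes were called in the same direction, and for none was a probe called in the other direction. With probe means in place of the brightest probe, 246 of the 498 called genes with several probes kept a call. A value given above for the brightest probe is therefore often larger than the mean over probes, and the transcripts that each probe reads were not examined.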

How the data were processed

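RNA of C2C12 myotubes was measured on 18 Illumina mouse bead arrays, and 8 of these make the 6 h comparison. The deposited values are linear probe intensities that the authors pre-processed with lumi, per the submitters' processing notes. Its version and its background and normalization settings were not given in the sources used here. Array medians ran from 99.8 to 100.4 at 6 h and from 85.2 to 86.8 at 24 h, and within a group no 2 arrays correlated below 0.993. The number of arrays limits the precision.

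Of 45281 probes, 34885 had 1 gene symbol, 18 several and 10378 none. Each of the 19053 genes was represented by its brightest probe, as log2 of the intensity with a pseudocount of 0. In 1 direction of within-group deviation at 6 h and in 3 at 24 h the deposited values hold almost no spread, and these 4 directions entered as covariates. One limma fit (version 3.58.1, R 4.3.3) over all 18 arrays gave the Dex effect at each time and their difference, with Benjamini-Hochberg adjustment over all genes, and it was tested on simulated data. A gene is called at an adjusted p under 0.05.

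The members and lists were chosen with earlier results of these data known. Genes were named by a rule: the 20 largest rises and falls with groups apart, the 2 smallest p-values in each class with 3 or more calls, the 3 smallest p-values in each of 5 intensity bins, the 5 largest gains and losses of intensity, genes passing from below the array median to above 2 medians or back, the cell type markers and up to 6 rising genes with the response element core. Other members of a class, and genes in opposite directions at the 2 times, were named after their values were seen. Alternatives covered the covariates, arrays in the fit, probe summary, normalization, background, dim genes, array weights, variance prior, threshold, replicate block and each array left out. Those for the calls at 24 h were chosen after seeing the data. Some results are not reported here.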

Additional observations from a re-analysis of the deposited data

Results flagged for a closer look

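In 12 of 334 groups of 4 arrays, the highest or lowest array of a named gene stood apart from the others by Dixon's criterion, which chance meets in about 1 in 20 groups. On the Dex arrays the value that stood apart was 4328.4 for Aqp5, 650.0 for Cotl1, 6932.2 for Errfi1, 449.3 for Itpk1, 324.5 for Npy1r, 202.0 for Runx1 and 6617.9 for Sphk1. On the ethanol arrays it was 125.5 for Edn1, 2046.0 for Errfi1, 3805.1 for Ier3, 954.0 for Vcam1 and 10021.9 for Zfp36l1.

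For 23 named genes the Dex effect at 24 h differed from that at 6 h by the limma test of the difference. Named genes too were chosen by their 6 h values, which favours smaller effects at 24 h. On the log2 scale, the effect at 24 h minus that at 6 h was positive for Orm1 (2.38), Serpina3n (1.45) and Ifi207 (1.04), whose rises were larger later. It was also positive for Artn (0.45), Cd276 (0.52), Eml1 (0.60), Jam2 (0.60), Rab38 (0.62), Snx3 (0.66), Sox9 (0.61), Stard4 (0.70) and Txn1 (0.55). It was negative for Lrrc26 (-1.11), Omd (-1.03), Cyp2f2 (-0.88), Cyb561 (-0.78), Nt5e (-0.78), Abcb1b (-0.71), Tcf23 (-0.71), Map3k6 (-0.60), Syt12 (-0.59), Fkbp5 (-0.53) and Cblb (-0.45).

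Probes that could not be given 1 gene also carried signal. Of 10396 such probes 188 were called at 6 h (1.81%), 81 higher and 107 lower, and 48 changed at least 1.5-fold. The largest rise among them was 1.96 and the largest fall -1.81 on the log2 scale.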

How the results depend on the processing

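None of the 167 named genes, all of them called and without the cell type markers, changed direction under any setting run. Of these genes, 147 kept their call whichever array was left out and 137 kept it under every other setting except the stricter threshold. Without the covariates for the missing spread the calls numbered 1727, with 890 rises and 837 falls, and 713 of the calls were repeated at 24 h, against 427 in the fit used here. With each array's minimum subtracted and 16 added these numbers were 469, 295, 174 and 264. At an adjusted p under 0.01 they were 478, 294, 184 and 274. With probe means 154 genes were called with a change of at least 1.5-fold. Leaving out 1 array at a time gave 557 to 1045 calls, 334 to 580 higher, 223 to 465 lower, 237 to 282 of at least 1.5-fold and 332 to 454 repeated at 24 h. The response element core stood in 3.46% of promoters of genes called lower and in 0% of those lower by at least 1.5-fold. The cause of these differences was not tested. Dim probes limit what can be seen, since signal near background bounds a fold change.

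The replicate numbers share no stated origin, and the deviations of arrays with the same number correlated at 0.26, 0.15, -0.080 and 0.055, so they were not taken as pairs. With the replicate block the calls numbered 1394, with 714 rises and 680 falls, and 643 were repeated at 24 h.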
